A study of Mus musculus with 110 samples.

Results

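The 3 VH segments described here are Ighv3-1-like_115608445, Ighv3-6 and Ighv1-4 of the mouse immunoglobulin heavy chain locus (Igh). They were chosen from the measured values, for high use in bone marrow against use in a parental cell line. A junction was counted for a member when it lay on chromosome 12 within 100 bp of position 115608445, 115918938 or 116115569 of the deposited files. They are 3 of 141 VH segments that could be matched to mm9, and they held 5358 of 3602400 junctions in 98 full libraries: 2021 for the Ighv3-1-like segment, 1888 for Ighv3-6 and 1449 for Ighv1-4. Of these, 4992 came from bone marrow.

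VH, D and JH segments are joined by the RAG endonuclease, which cuts at a recombination signal sequence (RSS) made of a heptamer, a spacer and a nonamer beside each segment. A D segment is first joined to a JH segment, and a VH segment is then joined to the DJH unit. RAG bound at the recombination centre scans chromatin brought past it by cohesin-driven loop extrusion, and CTCF bound to DNA, including at the control region IGCR1 between the VH and D segments, can halt that movement. In mice the distal VH segments are brought near by contraction of the locus, which v-Abl transformed pro-B lines largely lack. Junctions were mapped by LAM-HTGTS, a linear-amplification sequencing method that reads from a bait at JH4 into the prey it was joined to.

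Bone marrow pro-B cells (6 replicates) came from wild-type 129SV mice and, per the labels, were sorted as B220+CD43+IgM- cells, except for replicate 1, whose label states no sort. The other groups were v-Abl transformed pro-B cell lines, all RAG2 deficient and all with an Emu-Bcl2 transgene. RAG2 was supplied by nucleofection, and STI-571, an Abl kinase inhibitor, was given at 3 uM for 4 days. Auxin (IAA) was given at 500 uM for 6 h before STI-571 and then along with it. IAA leads to degradation of a protein that carries the mAID degron where OsTIR1 is present. The parental line, an Ostir1 knock-in without a tagged protein and a CTCF-mAID-GFP line without OsTIR1 had 4 untreated and 4 IAA replicates each. The other lines were the CTCFdegron line, with 6 and 6; the Rad21degron line, whose target is a cohesin subunit, with 3 and 3; and the same line with IGCR1 deleted, with 4 and 4. The labels do not say whether the lines are single clones or whether replicates are separate cultures or animals, so p-values measure only the spread between these samples, which may be technical. Replicates held 14866 to 231023 junctions, apart from the Rad21degron line with IAA (1263 to 2492) and the IGCR1-deleted line (1608 to 2668 with IAA and 5329 to 15327 without). Reads carry no molecular identifier. Intervals and limits on counts cover at most counting error, and they count identical junctions, which may be copies, as separate.

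The V ends of the members, read from the junctions, are shown because the segments were matched to mm9 by sequence. For the Ighv3 members each is the consensus of the reads at the position most often joined, over the last 150 bases up to that position, on the coding strand from 5′ to 3′, with the codon of the conserved second cysteine in capitals.

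Ighv3-1-like_115608445: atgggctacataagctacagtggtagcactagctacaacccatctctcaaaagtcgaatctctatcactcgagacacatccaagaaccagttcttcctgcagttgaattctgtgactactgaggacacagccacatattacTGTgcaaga
Ighv3-6: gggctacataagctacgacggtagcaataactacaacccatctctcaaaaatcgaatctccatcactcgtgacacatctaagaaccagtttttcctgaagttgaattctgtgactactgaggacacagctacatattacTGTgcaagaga

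The Ighv1-4 window held more than a single V sequence. Over 133 positions read in bone marrow, 6 had a second base in more than 15% of junctions, while the windows of the other members had none. Its 3 commonest combinations are shown in place of a consensus, over the same 130 bases of the coding strand, with the variable positions in capitals.

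Ighv1-4, form 1: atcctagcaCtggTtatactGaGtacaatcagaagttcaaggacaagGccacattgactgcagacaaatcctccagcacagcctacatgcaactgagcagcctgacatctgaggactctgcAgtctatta
Ighv1-4, form 2: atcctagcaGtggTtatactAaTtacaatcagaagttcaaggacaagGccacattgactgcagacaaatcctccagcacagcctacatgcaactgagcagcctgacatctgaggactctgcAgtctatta
Ighv1-4, form 3: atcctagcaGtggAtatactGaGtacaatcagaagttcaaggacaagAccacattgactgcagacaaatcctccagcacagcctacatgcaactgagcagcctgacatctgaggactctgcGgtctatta

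In the coordinates of the authors' hybrid of AJ851868 and mm9, these stretches were chr12:115608445-115608594, chr12:115918938-115919087 and, for the forms, chr12:116115579-116115708, and the coding strand was minus. The Ighv3-1-like and Ighv3-6 sequences were 92.2% identical over 218 aligned bases. Ighv3-6 matched Ighv3-6 of mm9 (annotated at 115526363 to 115526793) at 99.1% over 220 bases. All forms matched Ighv1-4 of mm9 (115725347 to 115725780) best, at 99.0%, 99.5% and 98.0%. Each form occurred in every bone marrow replicate, though form 3 rested on 3 readable junctions in each of replicates 4 and 5. These are more forms than 1 diploid animal can carry as alleles of a single segment. The labels do not say whether a replicate is 1 animal. Which of them belong to separate segments placed at the same position was not tested. The values of Ighv1-4 are the sum of the forms, set beside those of other segments. The sequence at 115608445 went against its working name. Its best match in mm9 was Ighv3-2 (115272016 to 115272234), at 95.5% over 221 bases, and RefSeq lists the Ighv3-2 of its reference strain as a pseudogene. Another segment, at 115543647, also matched Ighv3-2 best, at 94.1%, and was 95.9% identical to the Ighv3-1-like segment.

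The RSSs of these best matches were read from mm9 (NCBIM37), with the heptamer and the nonamer in capitals after 20 coding bases. They belong to the reference genome, and those of the cells were not read. Ighv5-2, the VH segment most used in the parental line, is given for comparison.

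Ighv3-2, best match of the Ighv3-1-like segment: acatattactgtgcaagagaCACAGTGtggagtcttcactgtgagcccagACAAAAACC
Ighv3-6: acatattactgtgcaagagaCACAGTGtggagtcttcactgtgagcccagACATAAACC
Ighv1-4: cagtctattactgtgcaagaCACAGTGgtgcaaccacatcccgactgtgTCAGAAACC
Ighv5-2: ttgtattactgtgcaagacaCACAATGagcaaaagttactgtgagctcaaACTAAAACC

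They lie on the minus strand at chr12:115271975-115272033, chr12:115526324-115526382, chr12:115725309-115725366 and chr12:114816676-114816734. Matches were counted over the 16 bases of the consensus heptamer CACAGTG and nonamer ACAAAAACC. Ighv3-2 matched all 16, which counts for 3 of 139 VH segments with an RSS found, the segment at 115543647 with the same best match among them. Ighv3-6 was among 17 that matched 15, and Ighv1-4 and Ighv5-2 matched 14, the median. The best matches of all members had the heptamer CACAGTG, as did those of 76.3% of the segments, and Ighv5-2 of mm9 had CACAATG. A match shared by several segments was counted for each of them. The spacer was 23 bases in the Ighv3 matches and 22 in that of Ighv1-4.

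In bone marrow each member held between 0.333% and 0.514% of all junctions. The Ighv3-1-like segment held 0.664%, 0.747%, 0.580%, 0.297%, 0.279% and 0.519% in replicates 1 to 6, a mean of 0.514% ± 0.192 (SD, n = 6). Ighv3-6 held 0.325% at the lowest, 0.447% at the median and 0.895% at the highest, with a mean of 0.499% ± 0.213 (SD, n = 6). Ighv1-4 ranged from 0.209% through a median of 0.297% to 0.484%, with a mean of 0.333% ± 0.118 (SD, n = 6). Every replicate used every member, and their ranges overlapped. The segments ranked 11, 14 and 28 among the 141 VH segments. Of the 1975, 1815 and 1202 bone marrow junctions of the Ighv3-1-like segment, Ighv3-6 and Ighv1-4, 571, 599 and 416 were distinct. With identical junctions in a library counted once, the share of Ighv1-4 was 0.510%, above the mean given here by over 1.5 times. As a share of junctions in the VH region, the members held 1.63% ± 0.408, 1.58% ± 0.428 and 1.07% ± 0.227 (SD, n = 6).

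The bone marrow replicates came from 2 sequencing runs, of 3 replicates each. The Ighv3-1-like segment held 0.663% ± 0.0837 of junctions in replicates 1 to 3 and 0.365% ± 0.133 in replicates 4 to 6, and these did not overlap. Ighv3-6 held 0.482% ± 0.0713 and 0.516% ± 0.328, and Ighv1-4 held 0.339% ± 0.127 and 0.327% ± 0.135. The mark for duplicate reads was set only in replicates 1 to 3. Without marked junctions the Ighv3-1-like segment held 0.938% ± 0.0472 and 0.365% ± 0.133, and with identical junctions counted once 0.780% ± 0.0478 and 0.602% ± 0.108 (SD, n = 3 each), again without overlap. Leaving out marked junctions changed only replicates 1 to 3. The runs then no longer overlapped at Ighv1-4 either, at 0.602% ± 0.0903 and 0.327% ± 0.135. With identical junctions counted once, which treats both runs alike, they did overlap at Ighv1-4, at 0.5365% ± 0.1209 and 0.4844% ± 0.1155 (SD, n = 3 each).

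Untreated parental cells had 3 junctions of the Ighv3-1-like segment, 3 of Ighv3-6 and none of Ighv1-4 among 488632. For Ighv1-4, 0 junctions allow a share of up to 0.000614%. By replicate, the Ighv3-1-like segment had 1, 1, 0 and 1 junctions and Ighv3-6 had 1, 0, 2 and 0. The mean replicate shares, 0.00316% and 0.00163%, weigh each replicate equally and lean on the shallowest ones. These values chose the members and are given without a test. Low use in the parental line was common: 60 of the 141 VH segments had at most 3 untreated parental junctions and 26 had 0. Among those 60, the members had the 3 highest bone marrow shares, and the next segment outside, at 115523698, had 2 parental junctions and 0.268% in bone marrow. The members were chosen on these values, and 3 was also their own highest parental count, so this place follows from the choice. With parental junctions pooled, the bone marrow mean was 837 times the parental share for the Ighv3-1-like segment (286.5 to 4060 by the exact 95% interval of the parental count) and 813 times for Ighv3-6 (278 to 3943). For Ighv1-4 it was 543-fold with the parental share set at 3 junctions over the group, and at least 441.6-fold by the exact interval. By this ratio, with every segment held to that floor, the members ranked 1, 2 and 3, which again reflects how they were chosen. The ratio depends on how parental replicates are weighted: over the mean of replicate shares it was 162 for the Ighv3-1-like segment and 307 for Ighv3-6, and 220 and 1730 without parental replicate 1, and by the mean the members ranked 32, 15 and 2.

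**Figure D1:**
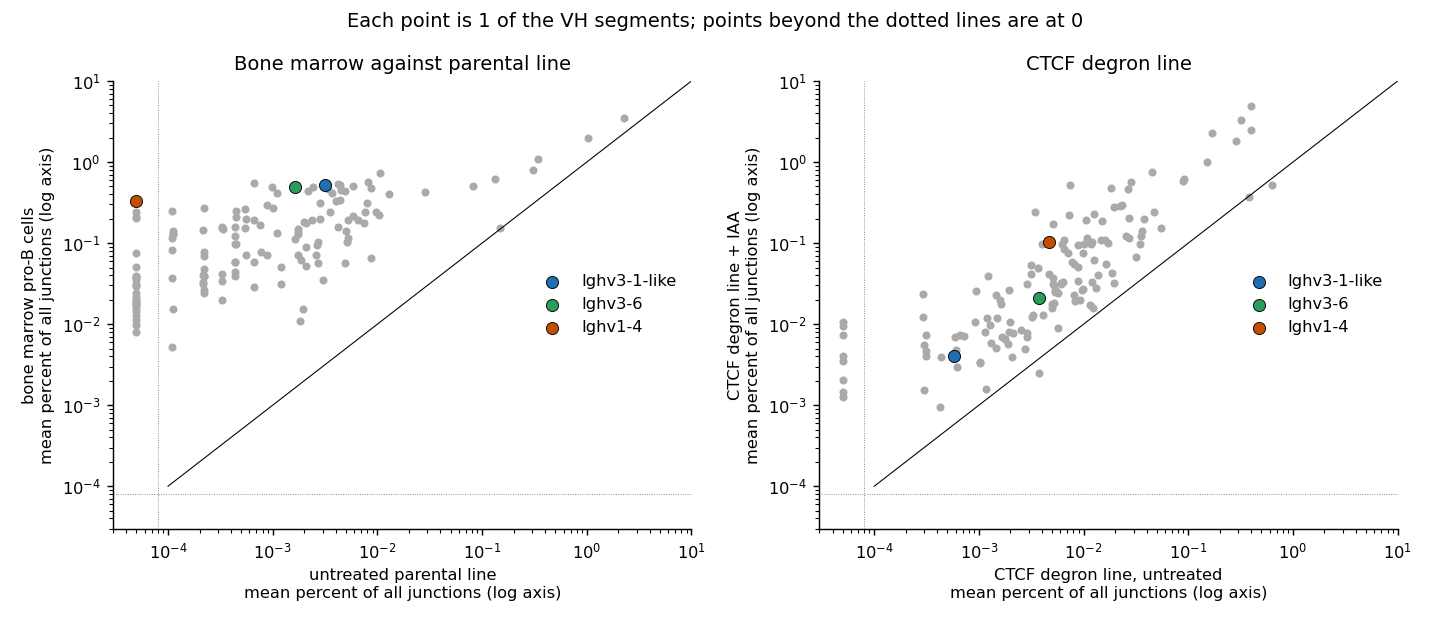
Mean percent of all junctions at each of 141 VH segments, on log axes, in bone marrow against the untreated parental line (left) and in the CTCFdegron line with IAA against without (right); the diagonal marks equal shares and points beyond the dotted lines are at 0. On the left Ighv1-4 is the highest of the segments at 0 in the parental line; on the right nearly the whole cloud, members included, lies above the diagonal.

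Ighv5-2, the segment known as VH81X, was high in both of these groups: it held 3.45% ± 0.412 (SD, n = 6) of bone marrow junctions and 2.26% ± 0.347 (SD, n = 4) of untreated parental ones.

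With IAA the parental line had 7 junctions of the Ighv3-1-like segment, 1 of Ighv3-6 and 2 of Ighv1-4 among 459142. The parental line also served in the choice of members, so its treatments were not tested against each other.

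In the CTCFdegron line, 25 member junctions were found without IAA and 233 with it. Ighv1-4 had 2, 1, 0, 2, 7 and 1 junctions in the untreated replicates 1 to 6 and 8, 44, 21, 33, 26 and 54 in the IAA replicates. Its share ranged from 0% through a median of 0.00310% to 0.0126% untreated and from 0.0369% through 0.101% to 0.160% with IAA, so that every IAA replicate lay above every untreated one. The means were 0.00468% ± 0.00466 and 0.103% ± 0.0524 (SD, n = 6 each), a 21.9-fold difference (exact permutation test, two-sided p = 0.00217, the smallest these groups can give; adjusted p = 0.00479 over 166 VH and D segments). With identical junctions in a library counted once, the difference was 0.159 percentage points in place of 0.0979 (exact permutation adjusted p = 0.00733).

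Ighv3-6 rose from 0.00374% ± 0.00363 to 0.0209% ± 0.0107 (SD, n = 6 each), 5.58-fold (exact permutation p = 0.0152, adjusted p = 0.0242). Its untreated replicates had 0, 1, 2, 1, 5 and 1 junctions, and those with IAA had 0, 6, 8, 6, 10 and 10. The groups overlapped through IAA replicate 1, which had none, and the other 5 IAA replicates were above every untreated one. When identical junctions in a library were counted once, the difference was 0.0237 percentage points and no longer passed (adjusted p = 0.0946).

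The Ighv3-1-like segment had 0, 0, 0, 1, 0 and 1 junctions untreated and 2, 1, 3, 0, 1 and 0 with IAA. Its means were 0.000577% ± 0.000895 and 0.00399% ± 0.00400 (SD, n = 6 each), and the groups overlapped (exact permutation p = 0.0736, adjusted p = 0.0940). The call rested on single replicates: without IAA replicate 4 or 6 the adjusted p was 0.0302 or 0.0311.

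A rise was the common behaviour of segments in this comparison, which limits what the members' counts show. By the same exact test, 118 of 166 segments passed, or 71.1%, 117 of them higher with IAA and 1 lower. Every IAA replicate lay above every untreated one at 44.6% of segments. Of 5 segments closest to the Ighv3 family, 3 rose and none fell, with a median difference of 0.00525 percentage points; of 48 closest to Ighv1, 30 rose and none fell, with a median of 0.0130. Over all 141 VH segments, 107 rose and none fell, and the median difference was 0.0218.

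Segment junctions were also compared with limma on junctions per library total. With a mean of at least 1 junction per replicate over both groups, 150 segments were tested and 81.3% were called, 121 higher with IAA and 1 lower, with a median log2 fold change of 2.31. Ighv1-4 and Ighv3-6 lay above that minimum in each group on its own. The log2 fold change was 4.33 ± 0.48 for Ighv1-4 (SE; adjusted p = 1.26e-13), from a mean of 2.17 junctions per replicate to 31. That of Ighv3-6 was 2.20 ± 0.56 (SE; adjusted p = 0.000251), from 1.67 to 6.67. The Ighv3-1-like segment, at 0.333 and 1.17 junctions, was not tested. A minimum mean of 10, the setting chosen for all segments, kept Ighv1-4 alone among the members and only through its IAA replicates, so its value there is no support. At that minimum 70 segments were tested and 88.6% were called, 61 higher and 1 lower, with a median of 2.76. Scaled by the median of ratios instead, which shifts the reference toward the rising VH segments, 26 were higher and 20 lower, with a median of 0.43.

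**Figure D2:**
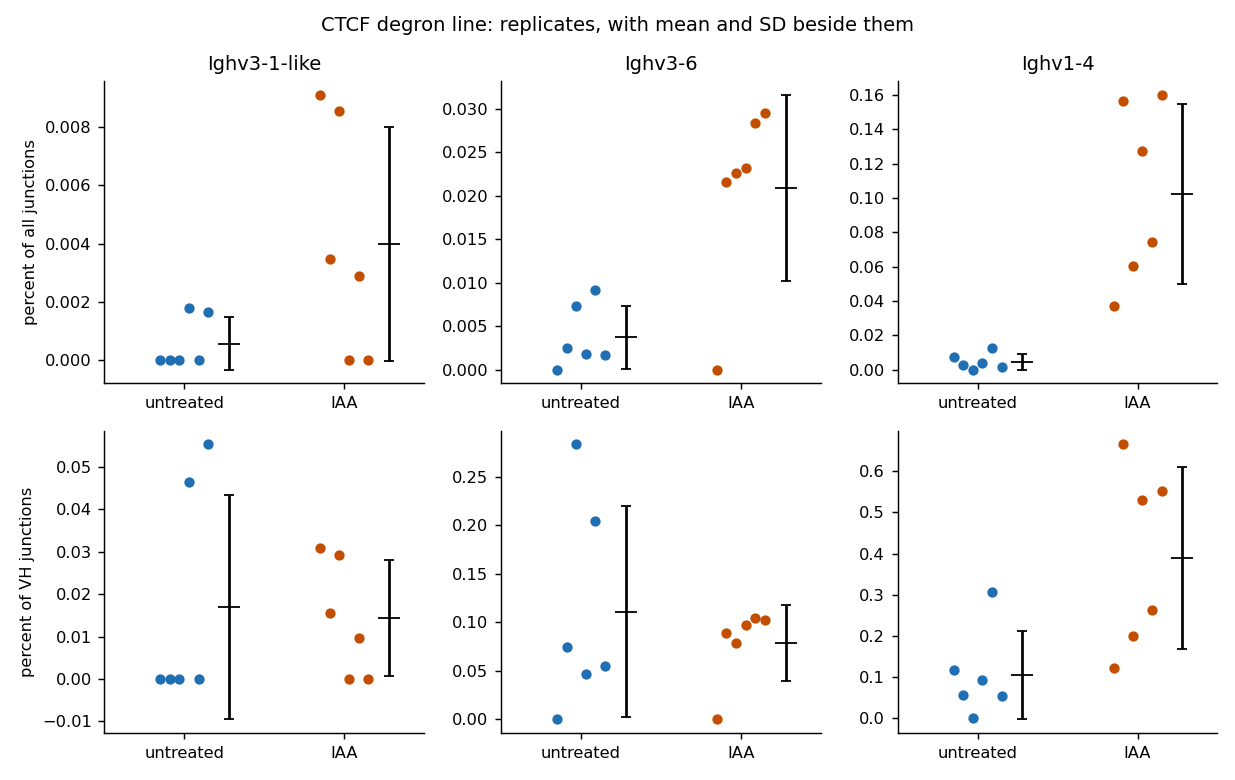
Replicate shares of each member in the CTCFdegron line, untreated (blue) and with IAA (orange), as percent of all junctions (top) and of VH junctions (bottom), with mean and SD beside the 6 points. On the top scale Ighv1-4 separates without overlap; on the bottom scale the groups of every member overlap.

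Measured within the VH region, no member passed after adjustment. The share of VH junctions at Ighv3-6 was 0.111% ± 0.109 untreated and 0.0786% ± 0.0397 with IAA (SD, n = 6 each; exact permutation p = 0.522, adjusted p = 0.694). That of the Ighv3-1-like segment was 0.0170% ± 0.0264 and 0.0143% ± 0.0137 (p = 0.838 by the same exact test, adjusted p = 0.923). Ighv1-4 went from 0.105% ± 0.106 to 0.389% ± 0.221 of VH junctions, 3.72-fold, with overlapping replicates (exact permutation p = 0.0217, adjusted p = 0.0783 over 141 segments). Without IAA replicate 1, its adjusted p was 0.0470. Of all VH segments, 18.4% passed on this scale, 19 higher and 7 lower.

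The IAA treatment is not stated in the treatment labels of CTCFdegron IAA replicates 4 (a library) and 5, which the titles place in that group. Without these 2 replicates, the differences in the share of all junctions were 0.0987 percentage points for Ighv1-4 (exact permutation adjusted p = 0.0107), 0.0147 for Ighv3-6 (adjusted p = 0.0485) and 0.00469 for the Ighv3-1-like segment (adjusted p = 0.0485).

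The control lines address whether OsTIR1, the tag or IAA alone gives such a change. In the OsTIR1-only line no member junction was found among 259025 untreated junctions, which allows a share of up to 0.00116%. With IAA there was 1 junction of each member among 236388, all in replicate 1. In the CTCF-tag-only line, Ighv1-4 had 0, 8, 5 and 7 junctions untreated and 1, 7, 8 and 9 with IAA. Ighv3-6 had 0, 7, 2 and 2 against 0, 2, 0 and 5, and the Ighv3-1-like segment had 0, 4, 0 and 5 against 2, 2, 3 and 7. The groups overlapped for each. The mean share of Ighv1-4 was 0.00334% ± 0.00250 untreated and 0.00397% ± 0.00222 with IAA (SD, n = 4 each; exact permutation p = 0.629). By the exact permutation test, 0% of 131 segments passed after adjustment where OsTIR1 was present alone, and 0% of 166 where the tag was, while 5 in each line had an unadjusted p under 0.05. With 4 replicates a group, p cannot go below 0.0286.

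The effect of IAA on Ighv1-4, taken over same-numbered pairs, was 0.0979 ± 0.0546 percentage points (SD, n = 6) in the CTCFdegron line, against 0.000416 ± 0.000831 with OsTIR1 alone and 0.000627 ± 0.00145 with the tag alone (SD, n = 4 each). Permuting the line labels gave an exact p of 0.0143 for both comparisons, with adjusted p = 0.0312 and 0.0321 over 166 segments. These SDs and p-values rest on number pairs that only 3 of 6 CTCFdegron pairs bore out, while the mean differences do not depend on the pairing. For Ighv3-6 the adjusted p was 0.0639 and 0.0516, and for the Ighv3-1-like segment 0.324 and 0.367, by the same exact permutation. Of all segments, 50.6% passed against the OsTIR1-only line and 52.4% against the CTCF-tag-only line, and both comparisons share the CTCFdegron samples. IAA and untreated replicates of a line shared sequencing runs, but these lines shared none with each other. Line and run therefore cannot be told apart. The difference from the CTCF-tag-only line was also fitted in limma without pairs, over 122 segments with a mean of at least 1 junction in each of the 4 groups. The log2 effect of IAA was higher in the CTCFdegron line by 3.92 ± 0.999 for Ighv1-4 (SE; adjusted p = 0.00164) and by 3.07 ± 1.14 for Ighv3-6 (SE; adjusted p = 0.0247). The median segment was higher by 2.01, and 53.3% were called, 64 higher and 1 lower.

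Members were close to absent from the Rad21degron lines. The untreated Rad21degron line had 1 junction of the Ighv3-1-like segment among 113444 and none of the others, which allows up to 0.00264%. With IAA it had none among 5566, a depth that allows up to 0.0539%. With IGCR1 deleted, VH junctions made up 24616 of 48627 in untreated cells and Ighv5-2 alone held 40.0% (37.4% to 41.9% over 4 replicates) of all junctions. Yet the only member junctions were 2 of the Ighv3-1-like segment, identical to each other and in replicate 3. For Ighv3-6 and Ighv1-4, 0 junctions in that group allow up to 0.00617%. With IAA and IGCR1 deleted there were none among 8434, which allows up to 0.0356%. The treatment label of replicate 4 of that group does not state IAA, and without it there were none among 6520, which allows up to 0.0460%. At these depths no effect of Rad21 loss on a member was detectable.

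**Figure D3:**
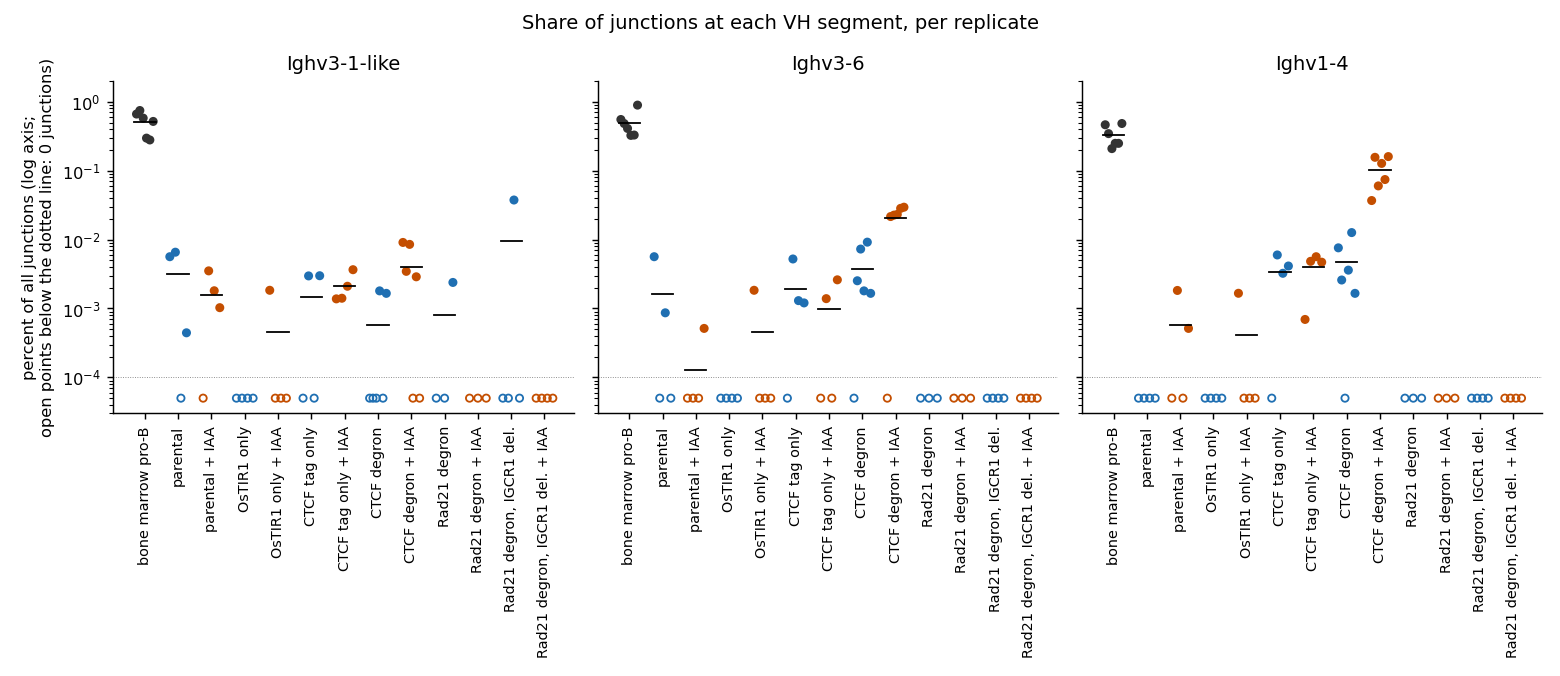
Percent of all junctions at each member in every replicate of the 13 groups, on a log axis, with the group mean as a bar; blue is untreated, orange is with IAA, and open points under the dotted line are replicates with 0 junctions. Bone marrow is highest for all members, and Ighv1-4 in the CTCFdegron line with IAA comes nearest to it.

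Ordered by mean share of all junctions, Ighv1-4 ran from bone marrow (0.333%) to the CTCFdegron line with IAA (0.103%), whose replicates did not overlap, and then to that line untreated (0.00468%) and the CTCF-tag-only line with and without IAA (0.00397% and 0.00334%), which overlapped one another. Ighv3-6 had the same leading groups, at 0.499%, 0.0209% and 0.00374%, followed by the untreated CTCF-tag-only line at 0.00193%, again overlapping. For the Ighv3-1-like segment, bone marrow lay above all line groups. Its second highest mean, 0.00938% in untreated cells with IGCR1 deleted, came from the 2 identical junctions, and the CTCFdegron line with IAA followed at 0.00399%, the ranges overlapping. Bone marrow and the lines named in this order were in separate sequencing runs, so line and run cannot be told apart.

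The VH segments whose pattern over the 13 group means was most like each member were found by Pearson's r of log2(percent + 0.001). For Ighv1-4 they were segments closest to Ighv11-1 (at 115560450, r = 0.99), Ighv2-6-8 (at 115272954, r = 0.99) and an unnamed segment at 116463656 (r = 0.99). For Ighv3-6 they were an unnamed segment at 115725671, one closest to Ighv6-3 at 116022318 and one closest to Ighv1-18 at 116311065, with r of 0.98 to 0.99. For the Ighv3-1-like segment they were Ighv10-1 (r = 0.94), an unnamed segment at 115588829 (r = 0.92) and Ighv1-37 (r = 0.91). Most groups are near 0 for all of these, and the points share libraries, so r is a description.

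The neighbouring segments are given side by side, and differences between neighbours were not tested. Ighv1-5, 26194 bp farther from the D segments than Ighv1-4, went from 0.0220% to 0.290% with IAA in the CTCFdegron line (exact permutation adjusted p = 0.00479). Ighv10-1, 8131 bp on its other side, held 0.272% of bone marrow junctions, and 0.00114% and 0.00793% without and with IAA (adjusted p = 0.0799 by the same exact test). Beside Ighv3-6, Ighv9-4 rose from 0.00890% to 0.0955% (adjusted p = 0.00479) and Ighv3-5 from 0.000296% to 0.00555% (adjusted p = 0.0242, exact permutation for both). Beside the Ighv3-1-like segment, the unnamed segment at 115588829 held 0.204% of bone marrow junctions and 0.00125% with IAA (exact permutation adjusted p = 0.478). The unnamed one at 115622573 held 0.0145% in bone marrow and 0.0121% with IAA, against 0.000290% without (exact permutation adjusted p = 0.00479).

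Within the Ighv3 family, bone marrow shares were 0.514% for the Ighv3-1-like segment, 0.499% for Ighv3-6, 0.211% for the segment at 115543647, 0.129% for Ighv3-5 and 0.0394% for Ighv3-3. With IAA, Ighv3-3, the least used in bone marrow, was the most used at 0.0582%, above Ighv3-6 at 0.0209%, Ighv3-5 at 0.00555%, the Ighv3-1-like segment at 0.00399% and the segment at 115543647 at 0.00300%. Whether the order differs between the groups was not tested.

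The structure of the junctions was not used to choose the members. It was compared across the 77 VH segments with at least 20 junctions in each bone marrow replicate, as the deviation from the median segment in limma. The joining bases of the members differed. Ighv1-4 lost 0.636 ± 0.188 bases of its V end on average (SD, n = 6), against 1.15 for the median segment, and 75.8% ± 6.12 of its junctions kept the whole V end. Ighv3-6 lost 1.63 ± 0.192 bases and kept it in 33.6% ± 5.82. The deviations were -0.51 ± 0.11 and 0.49 ± 0.12 bases (SE; adjusted p = 0.00429 and 0.00912), each on the same side in 6 of 6 replicates. The Ighv3-1-like segment lost 2.78 ± 0.205 bases (SD, n = 6; deviation 1.64 ± 0.11, SE, adjusted p = 5.25e-06), counted from the end of Ighv3-2 in mm9. That end was not read from the cells, and most of its junctions lay exactly 2 bases short of it. Of all segments, 50.6% differed from the median in this measure.

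The inserted length, which spans the D segment and added bases, averaged 16.7, 16.8 and 17.9 bases for the Ighv3-1-like segment, Ighv3-6 and Ighv1-4, against 17.1 for the median segment. None of the deviations passed (limma adjusted p = 0.635, 0.765 and 0.508), and 0% of segments did, although 10 had an unadjusted p under 0.05. The files hold no insert above 30 bases, so longer ones are outside these values.

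**Figure D4:**
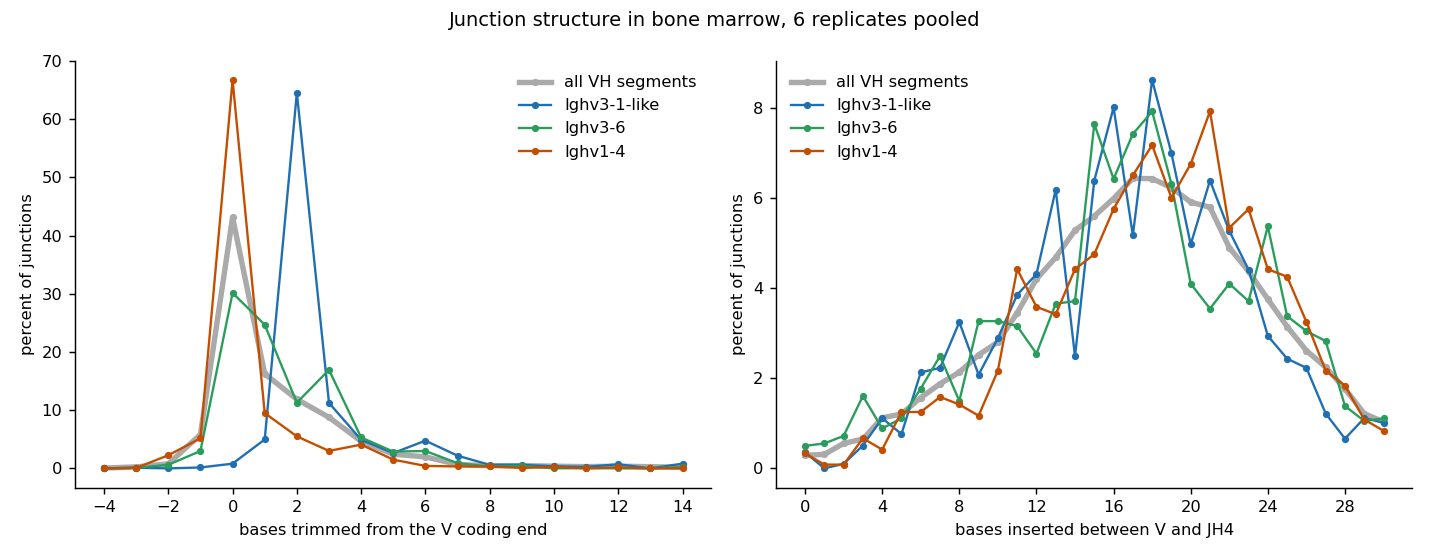
Percent of bone marrow junctions, 6 replicates pooled, by bases trimmed from the V coding end (left) and by bases inserted between V and JH4 (right), for each member and for all VH segments (grey). Ighv1-4 peaks at 0 trimmed bases, the Ighv3-1-like segment at 2, and the insert curves lie on one another.

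Reading frame was taken from the conserved cysteine codon of V to the tryptophan codon of JH4, and a junction was called productive when it was in frame with no stop codon between them. In bone marrow 60.4% ± 7.84 of the junctions of the Ighv3-1-like segment were in frame, 66.0% ± 5.07 of those of Ighv3-6 and 66.2% ± 9.38 of those of Ighv1-4 (SD, n = 6), against 58.6% for the median segment. By limma the deviations of 1.81 ± 2.88, 7.40 ± 3.09 and 7.54 ± 3.58 percentage points (SE) did not pass (adjusted p = 0.622, 0.0928 and 0.132). Those of Ighv3-6 and Ighv1-4 did pass with identical junctions counted once, at 5.91 and 8.18 (adjusted p = 0.0338 and 0.00452), and among segments with at least 50 junctions a replicate, at 7.69 and 7.82 (adjusted p = 0.0318 and 0.0466). With identical junctions counted once, that of the Ighv3-1-like segment was -2.66 (adjusted p = 0.290). Of all segments, 31.2% differed from the median. Productive junctions were 55.8% ± 7.40, 58.5% ± 5.10 and 59.7% ± 9.42 of the members' junctions, and 18.1% ± 1.89 of those of Ighv5-2 (SD, n = 6), of whose junctions 28.2% ± 2.60 were in frame. The ranges of the members lay wholly above that of Ighv5-2 in both measures.

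In the CTCFdegron line with IAA, 65 of 162 readable Ighv1-4 junctions were in frame, or 40.1% (exact 95% interval 32.5% to 48.1%), and 48 were productive, or 29.6% (22.7% to 37.3%). For Ighv3-6, 16 of 37 were in frame, or 43.2% (27.1% to 60.5%). Over all VH segments of that group the share in frame was 33.4%, in the untreated parental line it was 33.35%, and in bone marrow it was 51.7%. Over the 6 IAA replicates the in-frame share of Ighv1-4 averaged 37.3% ± 16.4 (SD). Its lowest replicate was at 14.3%, or 1 of 7 readable junctions. Its highest, at 12 of 20, lay above the lowest of bone marrow, 53.8%. With so few junctions a replicate, this spread includes counting error. The difference was not tested because bone marrow served in the choice of members.

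**Figure D5:**
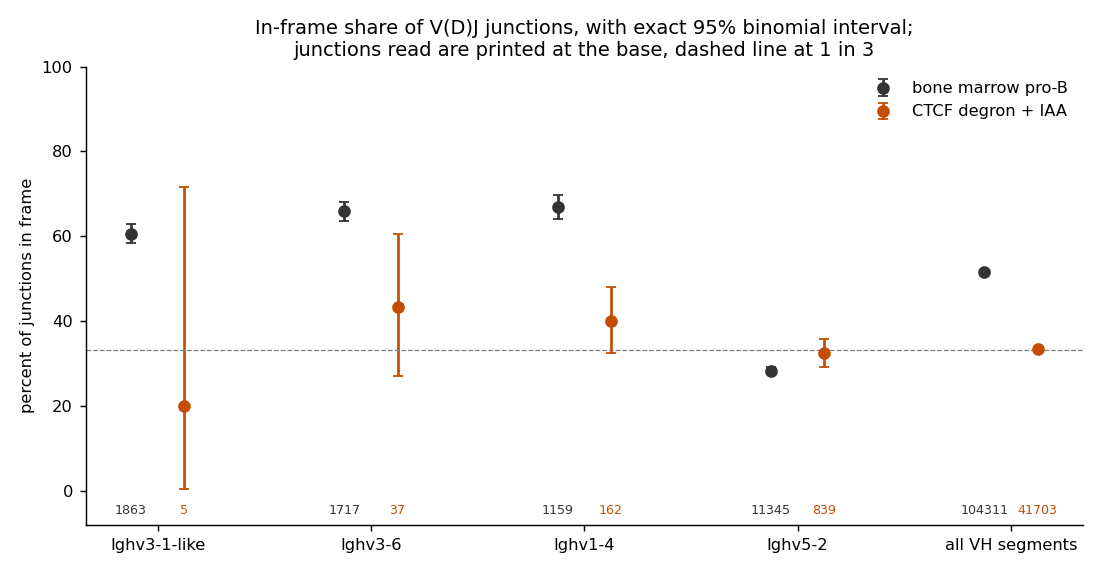
Percent of junctions in frame in bone marrow (black) and in the CTCFdegron line with IAA (orange) for each member, Ighv5-2 and all VH segments, with exact 95% binomial intervals from pooled junctions, whose number stands at the base. Identical junctions, which may be copies, were counted as separate, so the bone marrow intervals may be too narrow. In bone marrow the members lie between 60.6% and 67.0% and Ighv5-2 at 28.3%; with IAA the intervals of the members reach down to the dashed line at 1 in 3.

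Inserts held a stretch of at least 8 bases matching a single mm9 D segment in 53.2%, 54.8% and 55.8% of bone marrow junctions of the Ighv3-1-like segment, Ighv3-6 and Ighv1-4. The D segment named most often was Ighd1-1 (DFL16.1), in 33.3%, 41.1% and 38.2% of these, against 34.3% over all VH segments and 20.5% for Ighv5-2. Ighd2-8 came next, in 20.2%, 19.5% and 20.4%. The names are those of mm9, whose D segments differ from those joined here. A second D peak, at 114719358, matched Ighd1-1 best at only 81.0%, and several peaks shared Ighd2-5 as best match. Junctions of such copies may bear the name of another D segment, which was not tested. By replicate, the share of Ighd1-1 ranged from 18.9% to 45.5% for the Ighv3-1-like segment, from 29.4% to 53.2% for Ighv3-6 and from 25.5% to 48.4% for Ighv1-4, and from 16.4% to 22.7% for Ighv5-2. The ranges of Ighv3-6 and Ighv1-4 lay above that of Ighv5-2. In the CTCFdegron line with IAA, Ighd1-1 made up 52 of 111 matched Ighv1-4 junctions and 11 of 25 of Ighv3-6.

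The use of the 3 forms of the Ighv1-4 window is given without a test. In bone marrow forms 1, 2 and 3 made up 244, 236 and 209 of 791 junctions long enough to read, or 30.8%, 29.8% and 26.4%, and each occurred in 6 of 6 replicates. In the CTCFdegron line with IAA they made up 54, 22 and 5 of 86, or 62.8%, 25.6% and 5.81%. Form 1 ranged from 42.1% to 100% over those replicates, and replicate 1 had only 1 readable junction. In the CTCF-tag-only line form 2 was commonest, at 6 of 11 untreated and 7 of 13 with IAA. In bone marrow 72.7%, 63.5% and 68.9% of the junctions of forms 1, 2 and 3 were in frame.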

How the data were processed

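Per the labels, the authors used a hybrid of AJ851868 and mm9 as the genome; the submitters' processing notes name Bowtie2, and its version is not given in the sources used here. The deposited files hold 1 line per junction, with no column of tallies; 12 off-target lists were not used, nor was the hybrid genome. The members and lists were chosen with earlier results of these data known.

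Segments were peaks of at least 50 junctions whose 220-base consensus matched mm9 chromosome 12 (blastn 2.17.0; GENCODE vM1 and RefSeq names). This gave 141 VH and 25 D segments. Positions lay 3 bases lower in a libraries and 3 bases higher in b libraries than in bone marrow, and this was removed, except for the members' own windows. A replicate's share is the mean of its a and b library shares, with b libraries alone where IGCR1 was deleted. Shares were compared by two-sided exact permutation of replicates, with Benjamini-Hochberg adjustment over all segments with a junction. Junctions per segment, a and b summed, were compared with limma 3.58.1 (voom with library totals, offset 0.5, mean of at least 10) in R 4.3.3, and so were the deviations in junction structure; a call is an adjusted p under 0.05. For structure, plus-orientation junctions from 10 bases before to 30 bases inside the V end were used. Intervals are exact (Clopper-Pearson, 95%), and the limit for 0 junctions is 3 over the total. The tests were checked on simulated data. For shares and junctions per segment, the simulated segments held more junctions than the members had in untreated CTCFdegron cells. How the tests perform at the members' depths was therefore not checked.

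Named beside the members, by rule, were the nearest VH segment on each side, the 3 most alike in pattern, Ighv5-2, and the Ighv3 and Ighv1 families. Segments at 115543647 and 115523698 were named after their values were seen. Same-numbered replicates deviated together in every pair of the OsTIR1-only line (correlations of 0.66 to 0.88) and of the CTCF-tag-only line (0.47 to 0.87), and in 3 of 6 pairs of the CTCFdegron line. The highest correlation was with the own number in 2 of 4 OsTIR1-only, 4 of 4 CTCF-tag-only and 2 of 6 CTCFdegron pairs. In the OsTIR1-only line, replicates 1 and 2 came from a different sequencing run than replicates 3 and 4. Alternatives changed the window, the orientation, identical or marked junctions, the a and b libraries, the scaling, the minimum, the replicate block, the sequencing run and each replicate. The added ones (bone marrow shares and their ratio to parental shares, limma between lines without pairs, and IAA replicates without an IAA label) were chosen after seeing the data.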

Additional observations from a re-analysis of the deposited data

Results flagged for a closer look

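In 36 sets of replicates checked, 8 held a replicate far from the others, where chance alone gives about 1 in 20. Ighv3-6 held 0.00565% of junctions in untreated parental replicate 1, which is a single junction in a shallow replicate, against 0.000866% in the next. It held 0% in CTCFdegron IAA replicate 1, against 0.0216% in the next lowest. The in-frame share of the Ighv3-1-like segment was 76.1% in bone marrow replicate 6, against 59.5% in the next. The other 5 sets had junctions in only 1 of 4 replicates, and any such set stands out. These were 0.00184% for the Ighv3-1-like segment, 0.00184% for Ighv3-6 and 0.00166% for Ighv1-4, all in replicate 1 of the OsTIR1-only line with IAA and each a single junction. A single junction also gave Ighv3-6 0.000514% in parental IAA replicate 4. The pair of identical junctions of the Ighv3-1-like segment gave 0.0375% in replicate 3 of the untreated cells with IGCR1 deleted. The effect of IAA on Ighv1-4 differed between lines, by 0.0975 percentage points between the CTCFdegron and OsTIR1-only lines and by 0.0973 between the CTCFdegron and CTCF-tag-only lines (exact permutation of line labels, adjusted p = 0.0312 and 0.0321). These p-values rest on number pairs that 3 of 6 CTCFdegron pairs bore out; limma without pairs gave an adjusted p of 0.00164 against the CTCF-tag-only line.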

How the results depend on the processing

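Of 507 values under alternatives, 470 kept their direction and side of the threshold, or moved by less than the spread. In the CTCFdegron line, the replicate block left the differences at 0.0979 (Ighv1-4) and 0.0171 (Ighv3-6) percentage points. By the exact sign-flip test the adjusted p was 0.0535 and 0.0879. Ighv1-4 was higher in 6 of 6 pairs, so its p was the smallest that 6 pairs can give. No segment could then have a lower adjusted p. Only 3 of 6 pairs deviated together. In the control lines, where every pair did, the block made no call on a member, and 4 pairs cannot give p below 0.125. Identical junctions counted once gave 0.0237 for Ighv3-6, and b libraries alone gave 0.0223 for its difference from the CTCF-tag-only line (adjusted p = 0.0472). Without each replicate in turn, the share of all junctions of the Ighv3-1-like segment differed by 0.00240 to 0.00422; its share of VH junctions by -0.00609 to 0.00496, and by 0.00380 with b libraries alone; that of Ighv3-6 by -0.0543 to 0.00248; and that of Ighv1-4 by 0.229 to 0.338. Without the IAA replicates that lack an IAA label, the Ighv3-1-like segment differed by 0.00469 of all and 0.00200 of VH junctions. In the CTCF-tag-only line, the Ighv3-1-like segment differed by -0.000115 in a libraries alone, and leaving out replicates gave -0.00158 to 0.000164 for Ighv3-6 and -0.000487 to 0.00172 for Ighv1-4. The causes were not tested.

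Limma called 61 segments higher and 1 lower, against 26 and 20 with median-of-ratios scaling, 121 higher with a minimum of 1 junction, and 8 lower with identical junctions counted once. Segments that differed in trimming numbered 39, against 21 with at least 50 junctions and 25 with identical junctions counted once, where fewer segments could be tested; 4 then differed in inserted length, against 0, and the in-frame deviation of the Ighv3-1-like segment was -2.66. Bone marrow shares of the Ighv3-1-like segment, Ighv3-6 and Ighv1-4 were 0.691%, 0.720% and 0.510% with identical junctions counted once, and 0.652%, 0.729% and 0.465% with marked duplicates left out. Members rest on 0 to 20 junctions per group in most lines, which limits every value there.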
